A study of Mus musculus with 66 samples.

Results

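The neurexin, neuroligin and contactin adhesion genes studied here, 9 of 21938 protein-coding genes of the mouse genome, were followed through the islands of 2 histone marks in the prefrontal cortex (PFC). They were Nrxn3, Cntn4, Cntn5, Cntn6, Cntnap2, Cntnap5a, Cntnap5b, Cntnap5c and Nlgn1, a list set by gene name that holds some members of these families and not others, and together their bodies span 9.66 Mb of GRCm38. The mice were adolescents of the inbred strain DBA/2J, carried no engineered allele, and came as 2 treatment groups of each sex. By gavage, ethanol mice were given a 25% w/v solution at a dose of 4 g/kg intermittently between PND 29 and PND 42 (PND, postnatal day), and water mice were given water. The interval from the final dose to tissue collection was 24 h. Each sample joined the PFC of 3 mice of one sex and treatment, which gave 6 ethanol and 5 water pools of males and 6 ethanol and 5 water pools of females. H3K9me3, H3K36me3 and unprecipitated input were sequenced from every pool, 66 samples in all, and the 44 island lists of the 2 marks were used. Whole PFC holds neurons and glia, so a change in the share of a cell type and a change within that type cannot be told apart. The question addressed was where both marks lie in these genes and whether ethanol changed them.

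Neurexins, here Nrxn3, are presynaptic receptors whose extracellular part reaches across the synaptic cleft and binds, among other partners, the postsynaptic neuroligins, here Nlgn1. Contactins (Cntn4, Cntn5 and Cntn6) are lipid-anchored proteins of the immunoglobulin superfamily that guide axons and help to form circuits. Contactin-associated proteins are transmembrane relatives of the neurexins: Cntnap2 clusters potassium channels beside the node of Ranvier, and Cntnap5a, Cntnap5b and Cntnap5c are the rodent counterparts of a single human gene. H3K9me3 marks heterochromatin, much of it over repeated sequence, and H3K36me3 is deposited over the bodies of genes as they are transcribed. Genes of this family are known in brain for their very long introns.

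Islands are stretches where a caller, SICER, joined neighbouring 200 bp windows rich in ChIP reads. The lists also held islands that were no richer than input, so "listed" below means every island and "enriched" means those with a deposited q-value of at most 0.01. A library had 41363 to 72480 listed H3K9me3 islands (median 56370) and 19617 to 61910 listed H3K36me3 islands (median 35968). They held 5.73 to 14.2 M ChIP reads for H3K9me3 and 1.70 to 4.79 M for H3K36me3, so values of H3K9me3 rest on more reads. Reads outside islands were not analysed here. Some libraries stood apart. For H3K9me3, male ethanol replicate 4 had the most reads, and female water replicates 2 and 4 and male ethanol replicate 1 had the shortest listed length (130 to 141 Mb against a median of 178 Mb). Female water replicate 2 also had 12804 enriched H3K9me3 islands, 31.0% of its list, where the next lowest library had 32574, and a ratio to scaled input of 1.03. For H3K36me3, male ethanol replicate 4 had the fewest reads and male ethanol replicate 6 had 2248 enriched islands. Markers of the tissue were little covered by H3K36me3 islands. Of 7 neuronal genes the median was covered over 0.571% of its length and the highest, Slc17a7, a glutamate transporter of neurons, over 4.25%. Of 7 genes used outside the brain the median was 0.165% and the highest, the skin keratin Krt5, 9.98%, so the medians and the highest genes of the 2 lists run in opposite directions.

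All 9 genes are long, lie on 6 chromosomes and overlap no other protein-coding gene. Cntnap2, the longest, spans chr6:45059357-47304213 on the plus strand (2245 kb), and its longest intron, intron 1, is 594 kb. Nrxn3 spans chr12:88722876-90334935 on the plus strand (1612 kb), with a longest intron of 443 kb. Cntn5 spans chr9:9660891-10904775 on the minus strand (1244 kb), with a longest intron, intron 3, of 370 kb. The other contactins lie close to each other on chromosome 6, where Cntn6 spans chr6:104492790-104863406 (371 kb) and Cntn4 spans chr6:105677660-106699310 (1022 kb), both on the plus strand. The Cntnap5 genes are all on the plus strand: Cntnap5b spans chr1:99772765-100485942 (713 kb), Cntnap5a spans chr1:115684756-116587323 (903 kb) and Cntnap5c spans chr17:57769570-58410355 (641 kb). Nlgn1 spans chr3:25426215-26332460 on the minus strand (906 kb), and one intron of 473 kb makes up 52.2% of it. Exons of all annotated transcripts make up between 0.364% (Cntn5) and 1.75% (Cntn6) of these bodies.

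Islands of both marks sat in the introns and away from the promoters. In each gene, on average over the 22 pools, at most 0.024% of the length covered by H3K9me3 islands was exonic, and at most 0.435% for H3K36me3. Positions covered in at least 11 of the 22 libraries were joined into regions of at least 200 bp: 149 H3K9me3 regions and 90 H3K36me3 regions lay in the 9 genes, and none of them touched an exon. The H3K9me3 regions had a median width of 3.00 kb (widest 8.00 kb). The one nearest a 5' end, in Cntn6, had its middle 23.9 kb from that end. Of these regions, 57 had an H3K9me3 island in all 22 libraries, 15 of them in Cntnap5c, 14 in Cntnap2 and 12 in Cntn5, whereas Nlgn1 had none. Promoter windows of 300 bases from RefSeq (GRCm38) were matched for 7 of the 9 genes (13 windows, since several genes have more than one start). No H3K9me3 island touched any of the 13 in any library, and H3K36me3 islands touched 1 of them, in Nrxn3, in 1 library.

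**Figure D1:**
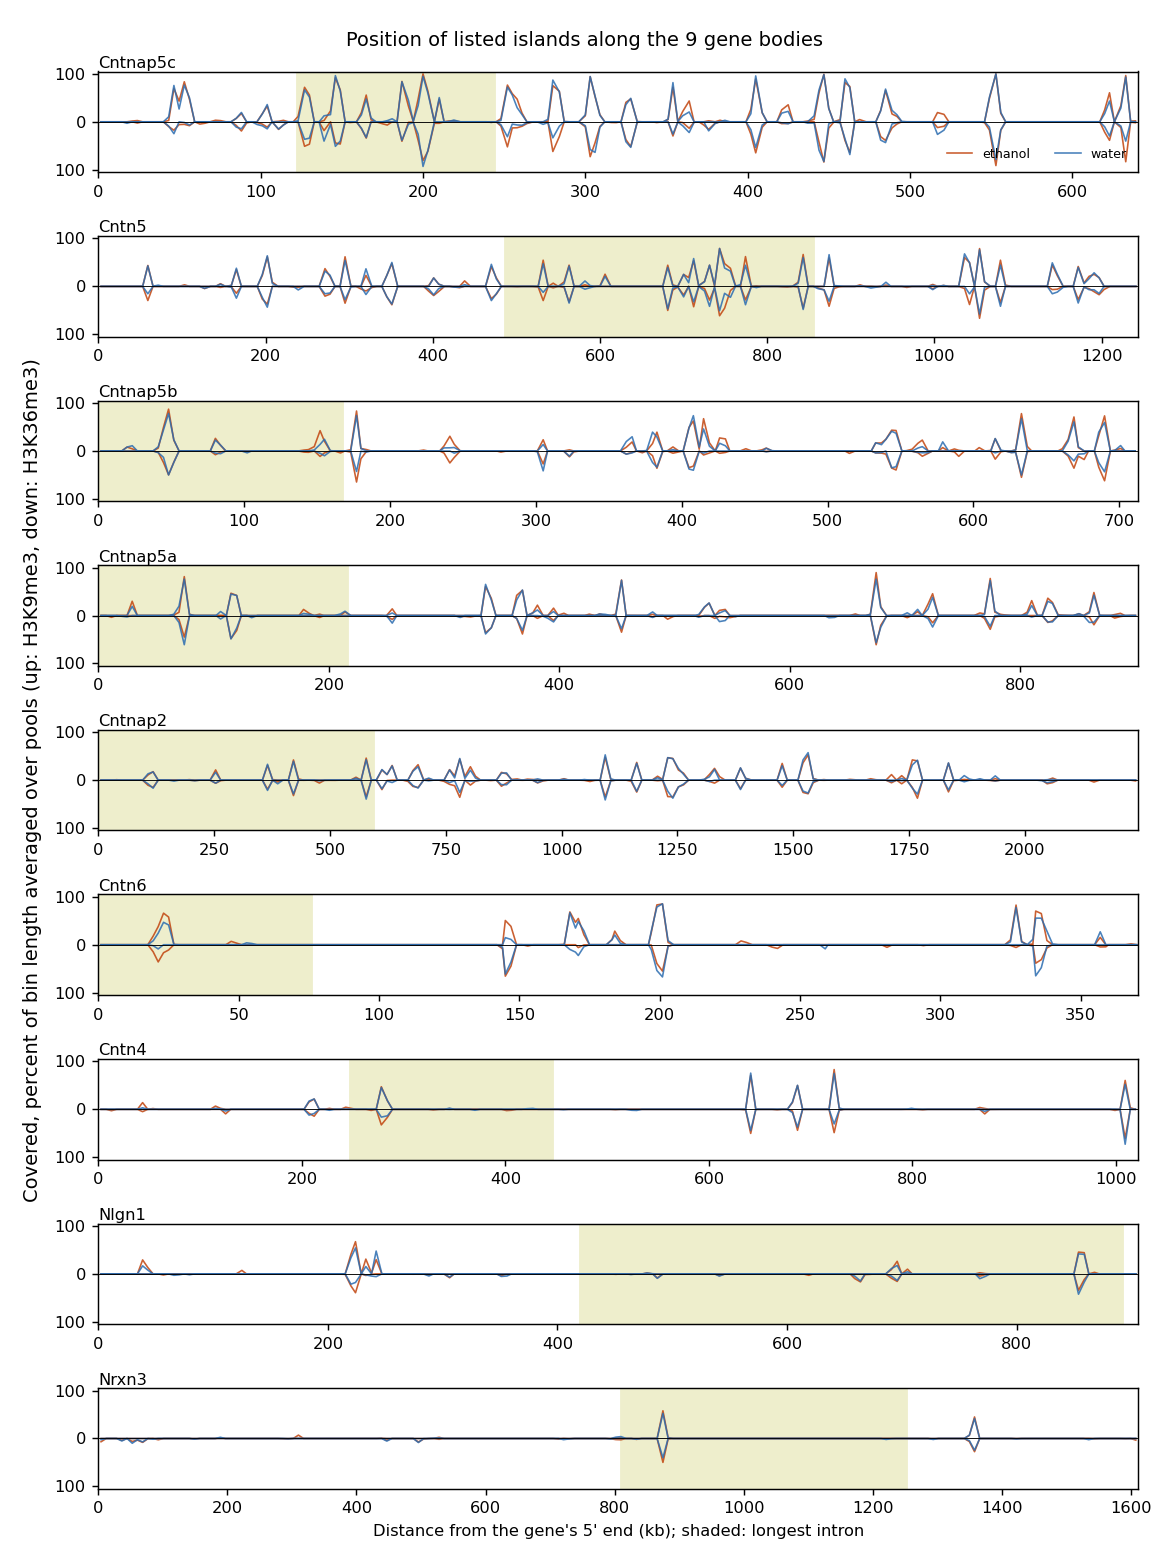
Share of each of 200 bins along the gene that was covered by listed islands, averaged over the ethanol (12) and the water (10) pools of both sexes, with H3K9me3 drawn upward and H3K36me3 downward against distance from the 5' end in kb. Both marks peak at the same intronic places in both treatments, and the longest intron (shaded) holds no island over most of its length.

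The share of covered length that fell in the longest intron can be set against the size of that intron. In Cntnap2 it makes up 26.4% of the body and held 17.1% ± 1.53 (SD, n = 22) of the H3K9me3-covered length, and in Cntn5 it makes up 29.8% and held 38.3% ± 2.73. In Cntnap5c it makes up 19% and held 26.7% ± 2.37. In Nlgn1 it makes up 52.2% and held 37.8% ± 11.1, and in Nrxn3 it makes up 27.5% and held 48.2% ± 8.62. Cntn5 and Cntnap5c were thus denser inside this intron than outside it, and Cntnap2 and Nlgn1 less dense. In the other 4 genes the share was within 1 SD of the size: 16.2% ± 5.75 against 19.5% in Cntn4, 17% ± 8.40 against 20.4% in Cntn6, 22.9% ± 4.66 against 23.9% in Cntnap5a and 21.9% ± 5.81 against 23.5% in Cntnap5b. Nrxn3 has so few islands, 2 to 5 per library, that its share rests on a few places.

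The covered positions were nearly all repeated sequence. Over the 449 kb of the 9 genes that H3K9me3 islands covered in at least 11 libraries, 95.6% of bases were in lower case in the RefSeq genome, which is how that genome marks interspersed and simple repeats. Over the 8606 kb that no library covered, the value was 25.5%. The contrast held in each gene: 89.5% (Cntnap5b) to 100% (Nrxn3) inside and 20.4% (Nrxn3) to 27.9% (Cntn5) outside. H3K36me3 islands gave the same picture, with 96.4% over the 231 kb covered in at least 11 libraries and 26.5% over the 8577 kb covered in none. GC content over the 9 genes together hardly differed, at 37.9% inside H3K9me3 islands and 38.0% outside, but single genes went both ways. It was higher inside in Cntn6 (38.7 against 36.2%), Nlgn1 (39.1 against 37.2%) and Cntnap2 (38.7 against 37.5%). In the other genes it was lower inside, most in Cntnap5b (36.8 against 38.1%). CpG dinucleotides were at 5.57 per kb inside and 4.62 outside, and Nrxn3 (8.88) and Nlgn1 (8.13) had the densest covered parts.

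The same repeated sequence recurred from gene to gene. Of all 25-base words, read on either strand, that started inside H3K9me3-covered positions, 54.7% (245620 of 449000) occurred also in the body of another of the 9 genes, against 3.98% of the words outside. The share ran from 34.2% in Cntnap5b to 96.6% in Nrxn3, and in Nlgn1 it was 86.3%. As an example of covered sequence, 300 bases of the plus strand (RefSeq GRCm38) are given from the middle of the Cntn4 region with the highest mean ChIP over scaled input among those of the gene with an island in all 22 libraries. The window lies 640 kb from the 5' end of Cntn4, is intronic and is wholly in lower case in the genome:
Cntn4, intron 5, chr6:106317951-106318250: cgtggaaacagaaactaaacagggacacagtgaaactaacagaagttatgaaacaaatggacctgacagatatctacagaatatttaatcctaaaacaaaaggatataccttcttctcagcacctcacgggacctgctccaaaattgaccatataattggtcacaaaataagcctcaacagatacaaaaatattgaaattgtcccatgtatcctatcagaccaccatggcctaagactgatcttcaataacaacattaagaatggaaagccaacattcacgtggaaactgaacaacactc

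Mean ChIP over scaled input in that Cntn4 region was 1.5 ± 0.239. Regions chosen in the same way in 7 other genes (Nlgn1 had none) had a mean ratio of 1.56 ± 0.160 in Cntnap2, 1.56 ± 0.104 in Cntnap5a, 1.54 ± 0.314 in Cntnap5c, 1.51 ± 0.235 in Cntnap5b, 1.51 ± 0.221 in Nrxn3, 1.48 ± 0.307 in Cntn5 and 1.33 ± 0.187 in Cntn6 (SD, n = 22 each). The region of Cntn6 was the lowest, and the differences were of the size of the spread between libraries. For H3K9me3 the study kept only reads with a single place in the genome. How far that step lowered the counts in sequence of this kind was not tested.

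**Figure D2:**
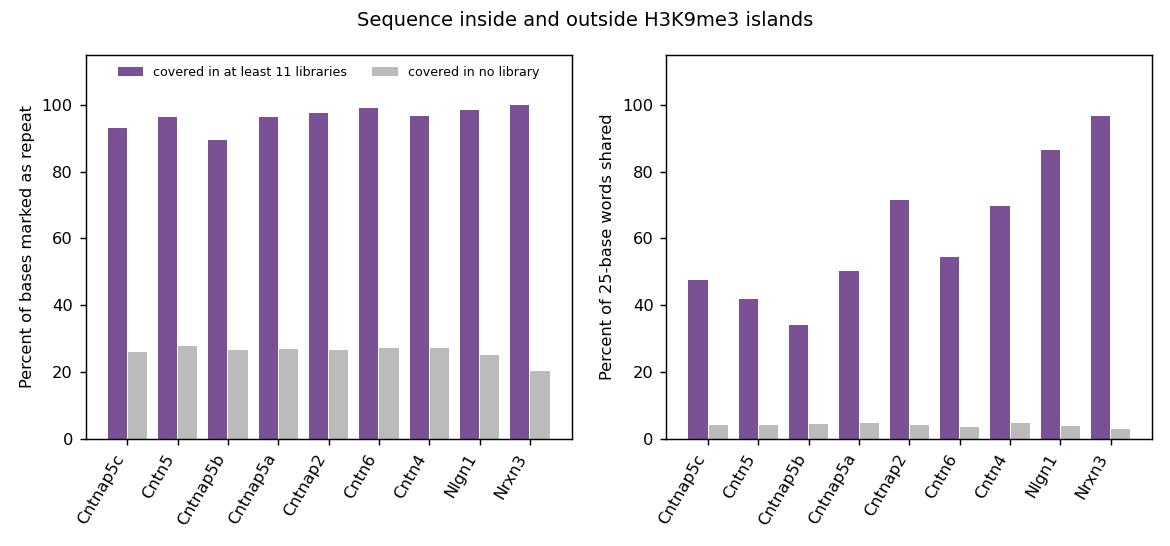
Bars give, for each gene, the percent of bases marked as repeat (left) and the percent of 25-base words that recur in the body of another of the 9 genes (right), inside positions that H3K9me3 islands cover in at least 11 libraries and in positions covered in no library. Every gene is higher inside, between 89.5 and 100% marked as repeat against 20.4 to 27.9%.

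The genes differed widely in how much of them H3K9me3 islands covered. Cntnap5c stood first, with 14.5% ± 2.00 of its body covered (SD, n = 22; range 9.93 to 18.5%) by 21 to 35 islands. Cntn5 followed with 8.11% ± 1.21 (5.19 to 9.92%) and Cntnap5b with 6.38% ± 1.89 (2.10 to 11.2%). Cntnap5c was above Cntn5 in 22 of 22 pools and Cntn5 above Cntnap5b in 21 of 22. Cntnap5a (5.24% ± 1.23), Cntnap2 (5.06% ± 0.750) and Cntn6 (4.60% ± 1.30) formed a middle group whose order changed from pool to pool: Cntnap5a was above Cntnap2 in 12 of 22 pools, by 0.183 ± 0.851 percentage points, and Cntnap2 was above Cntn6 in 14 of 22. Cntn4 (2.04% ± 0.398) lay lower and was above Nlgn1 (1.66% ± 0.521) in 16 of 22 pools. Nrxn3 stood last in every pool, with 0.601% ± 0.148 covered. Cntnap2, although the longest gene and the one with most islands (26 to 49 per library), was thus less covered than shorter genes such as Cntnap5c.

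How much was covered moved with how much each library had listed. Across the 22 H3K9me3 libraries, Spearman's rho between the percent of a gene covered and the total listed length of the library ran from 0.431 (Cntnap5c) to 0.840 (Cntnap2), as a description. In male ethanol replicate 4, the library with most reads, 11.2% of Cntnap5b and 18.5% of Cntnap5c were covered, the highest values of both genes. In female water replicate 4, 2.10% of Cntnap5b and 9.93% of Cntnap5c were covered, the lowest. 

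**Figure D3:**
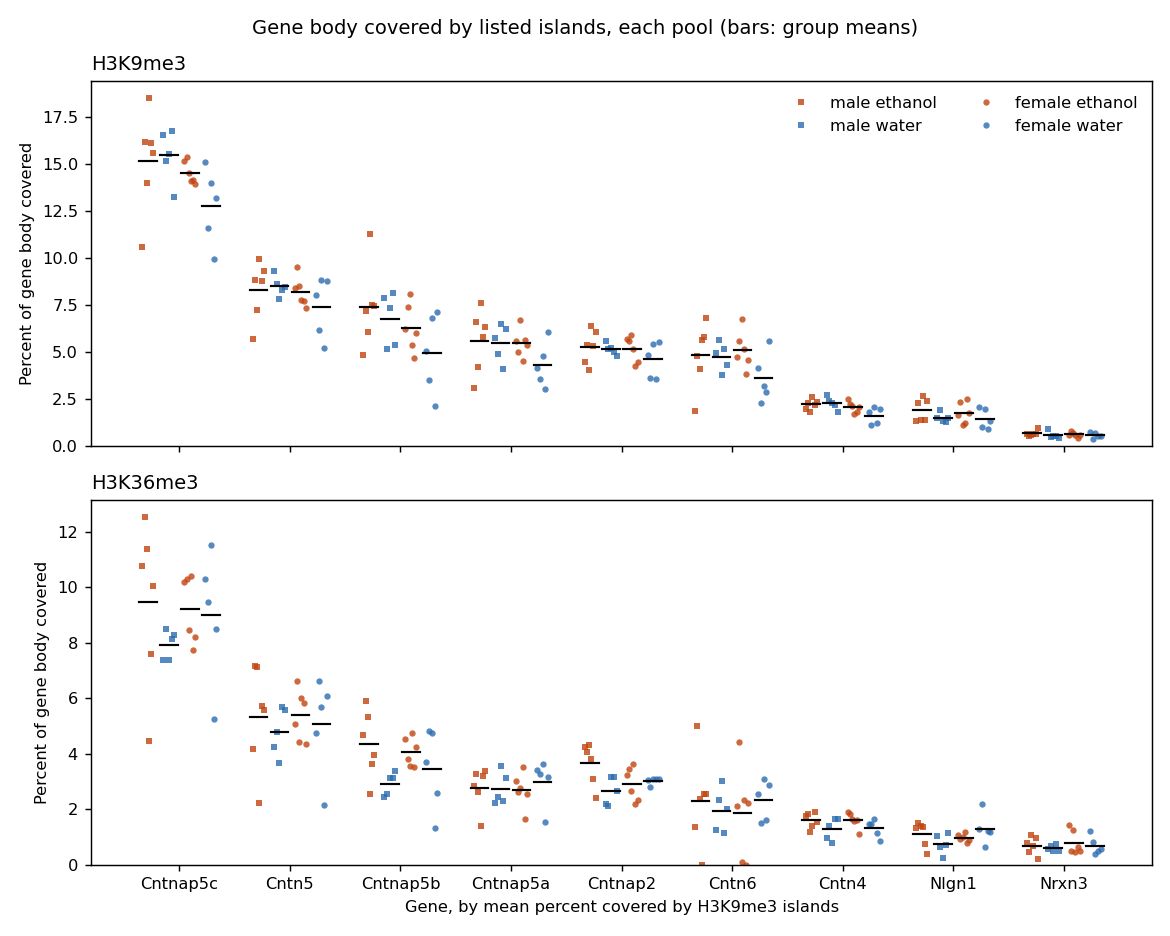
Percent of each gene body covered by listed islands, one point per pool and mark, in the 4 groups of sex and treatment, with a bar at each group mean. Cntnap5c lies highest in every pool for both marks, Nrxn3 lies lowest in every pool for H3K9me3 and by its mean for H3K36me3, and ethanol and water points overlap in every gene.

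ChIP reads exceeded scaled input by a similar and modest ratio in all 9 genes. The input reads of each island were multiplied by the one constant of the library that the deposited fold values imply. For H3K9me3 the mean ratio ran from 1.28 ± 0.0809 in Cntn5 to 1.46 ± 0.128 in Nrxn3 and 1.46 ± 0.119 in Nlgn1 (SD, n = 22). The least covered genes thus had the highest ratios, and all 9 ranges overlapped. Across all H3K9me3 islands of a library the ratio was 1.03 to 1.61 (median 1.42), and across those of the 9 genes 1.1 to 1.5 (median 1.37). Enriched islands were 20.9 to 80.2% of the member islands of a library (median 64.9%), against 31.0 to 88.1% of all islands (median 76.4%). Each of the 9 genes had an enriched H3K9me3 island in at least 21 of the 22 libraries.

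H3K36me3 islands were fewer and their reads were closer to input. They covered 8.95% ± 1.97 of Cntnap5c, 5.16% ± 1.35 of Cntn5, 3.74% ± 1.09 of Cntnap5b, 3.09% ± 0.646 of Cntnap2 and 2.79% ± 0.660 of Cntnap5a (SD, n = 22). Cntn6 (2.10% ± 1.25), Cntn4 (1.47% ± 0.334), Nlgn1 (1.04% ± 0.420) and Nrxn3 (0.699% ± 0.316) followed, so Cntnap5c again stood first and Nrxn3, by its mean, last, with Nlgn1 above it in 16 of 22 pools. Cntn6 had no H3K36me3 island in male ethanol replicate 4 and female ethanol replicate 5, the only such cases among the 9 genes. The ratio to scaled input averaged 1.12 ± 0.106 in Cntn5 and 1.39 ± 0.324 in Nlgn1, the lowest and the highest gene. Of the member islands of a library, 3.19 to 75.8% were enriched (median 27.4%), against 7.76 to 73.2% of all islands (median 37.8%).

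**Figure D4:**
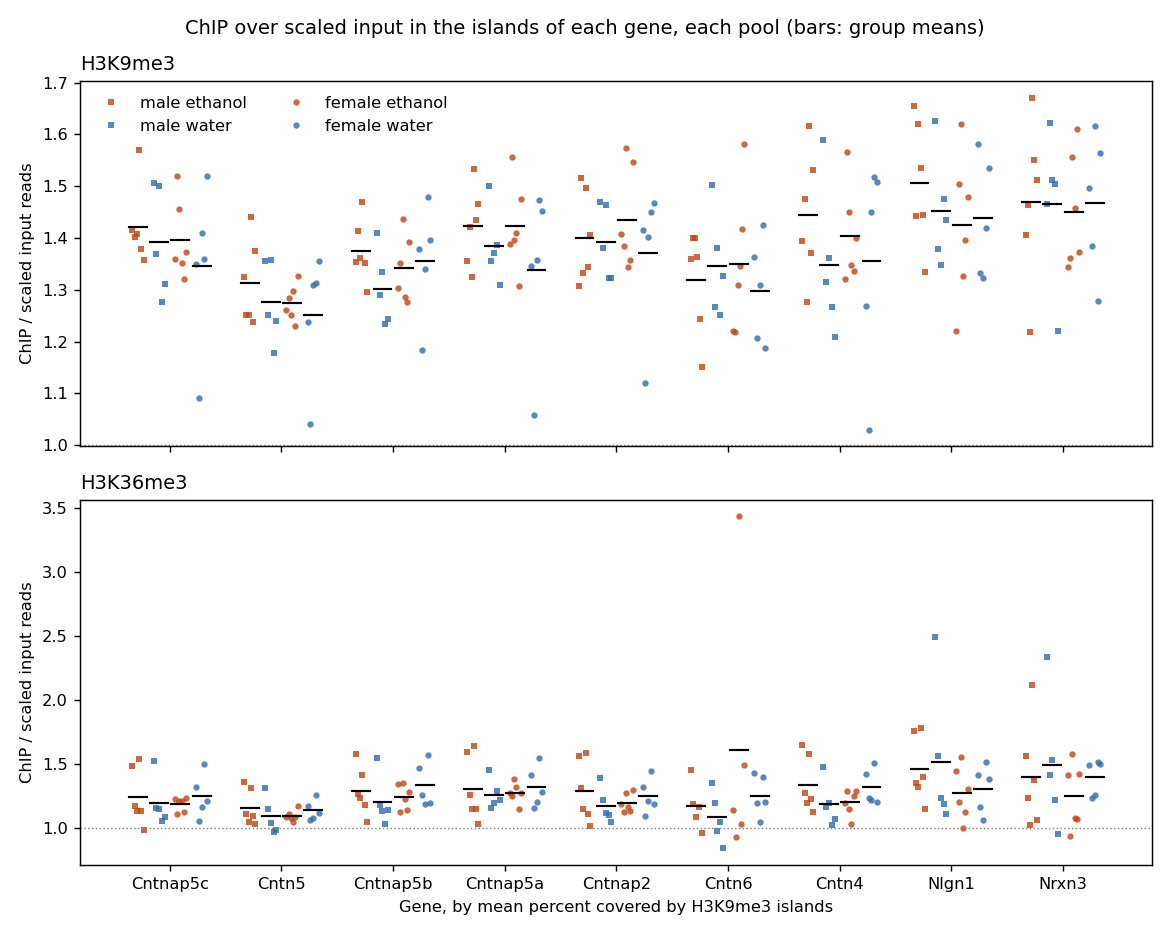
Ratio of ChIP reads to scaled input reads in the listed islands of each gene, one point per pool, with a bar at each group mean and a dotted line at 1, for H3K9me3 (upper) and H3K36me3 (lower, on its own axis). H3K9me3 lies above 1 in every gene and pool, with gene means between 1.28 and 1.46, and H3K36me3 reaches down to 1 and below in several genes.

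Most of the H3K36me3 listed in these genes lay where H3K9me3 was listed too. Of the 90 H3K36me3 regions in the 9 genes, 85 (94.4%) touched an H3K9me3 region, and 84 of the 149 H3K9me3 regions (56.4%) touched one of H3K36me3. Within a pool, 53.4 to 85.7% (median 72.5%) of the length covered by H3K36me3 islands in the 9 genes lay also in H3K9me3 islands of that pool. Over the whole genome the same value was 50.6 to 82.0% (median 67.3%), so the overlap was no peculiarity of these genes. By gene, the mean was highest in Cntnap5c (76.4% ± 6.92) and Cntnap2 (75.1% ± 8.91) and lowest in Nlgn1 (50.5% ± 27.0) and Cntn6 (51.0% ± 29.7, n = 20). In the other direction less was shared: 27.0 to 58.3% (median 43.4%) of the H3K9me3 length in the 9 genes lay in H3K36me3 islands of the same pool. Over the whole genome that value was 25.3 to 56.0% (median 37.7%). Both lists of a pool were called against its input, so they share that library. What the common input and the repeated sequence contribute to this overlap was not tested.

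Among genes of similar length the 9 spread over the whole scale. Of the 222 other protein-coding genes of at least 500 kb, the median gene had 2.73% of its body covered by H3K9me3 islands on average over the pools (range 0 to 22.2%). Cntnap5c lay above 96.4% of them, Cntn5 above 91.4%, Cntnap5b above 83.3%, Cntnap5a above 77.5% and Cntnap2 above 76.1%. Cntn4 lay above 38.3%, Nlgn1 above 33.3% and Nrxn3 above 12.6%. Cntn6, at 371 kb shorter than that set, lay above 73.0%. For H3K36me3, 1 of the 222 genes was covered more than Cntnap5c.

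The genes whose coverage rose and fell over the pools most like the mean of the 9 were Nkain3 (Spearman's rho 0.924, n = 22 libraries), Thsd7b (0.921) and A830018L16Rik (0.914), taken from 1967 genes of at least 100 kb. Their mean H3K9me3 coverage was 7.87, 7.21 and 12.9%. The median gene of that set had a rho of 0.335, and the members themselves ran from 0.404 (Nlgn1) to 0.906 (Cntnap5b). Each member is itself part of the mean of the 9, so its rho is not independent of that mean. All points share the libraries and their depth, so the likeness is a description. Of 46 other adhesion genes of the synapse (other neurexins, neuroligins, contactins and their relatives, latrophilins, teneurins, Slitrk and Lrrtm proteins and similar), 12 had more than 1% of their body covered by H3K9me3 islands, with a median of 0.0197%, against a median of 5.06% for the 9. Il1rapl2, a receptor-like partner of presynaptic phosphatases, was the most covered of the 46, at 7.03%. The 46 were not matched to the 9 in length, and the part of length in this contrast was not tested. For the 222 other genes of at least 500 kb the median was 2.73%.

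In males, H3K9me3 body reads of the 9 genes were close between treatments. Reads of all listed islands were summed over each gene and tested by edgeR with treatment as the only term. Of 3566 genes tested, 61 were at an unadjusted p of 0.05 or less (1.71%), and 0 after Benjamini-Hochberg adjustment, where DESeq2 gave 3, none of them a member. All 9 members were tested, and 1 was at the unadjusted threshold: Nlgn1, the neuroligin. Its reads per M island reads of the library were 57.8, 79.4 and 93.0 (lowest, median, highest) in male ethanol pools. They were 54.3, 56.5, 61.5, 64.0 and 80.4 in the 5 male water pools. The groups overlap, since male water replicate 2 was above the ethanol median. The estimated log2 fold change was 0.32 ± 0.14 (SE; edgeR adjusted p = 1), and 0.27 to 0.42 when each library was left out in turn. It lost the unadjusted threshold in 7 of these 11 cases, the one without male ethanol replicate 4 among them. Relative to input it was 0.05 ± 0.08. Nrxn3 had an estimate of 0.29 ± 0.16 on the same scale, which was 0.45 (edgeR adjusted p = 1) without male water replicate 1, where it reached the unadjusted threshold. In that case its coverage did so too, by 0.181 percentage points (exact permutation test, p = 0.00952). The contactins had estimates of -0.0026 ± 0.07 (Cntn4), -0.05 ± 0.06 (Cntn5) and -0.08 ± 0.18 (Cntn6). The contactin-associated genes had 0.03 ± 0.05 (Cntnap2), 0.02 ± 0.14 (Cntnap5a), 0.11 ± 0.12 (Cntnap5b) and -0.03 ± 0.06 (Cntnap5c). None of these 7 was as large as its standard error, and those of Cntn4, Cntn6 and Cntnap5a changed sign when single libraries were left out. The median estimate of the 9 was 0.02, beside 0.01 for all genes tested.

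In females, H3K9me3 body reads had estimates above 0 in all 9 genes, none of which passed the adjusted test. Of 3561 genes, 81 were at the unadjusted threshold (2.27%) and 0 after adjustment (4 by DESeq2, none a member), and 59.4% of all genes had an estimate above 0. The sign was not held in Nrxn3, whose estimate was 0.01 ± 0.12 and ran from -0.06 to 0.08 when each library was left out, with mean reads per M of 45.5 with ethanol and 46.9 with water. Cntn6, Cntnap5a and Cntnap5c, 3 of the 9, were among the 81. For Cntn6, a contactin, reads per M were 69.6, 78.6 and 92.8 (lowest, median, highest) in ethanol pools. They were 46.6, 51.6, 57.6, 67.1 and 83.0 in the water pools. The other 4 water pools lay below every ethanol pool, and water replicate 5 lay above 5 of the 6. The log2 fold change was 0.43 ± 0.15 (SE; edgeR adjusted p = 0.998), and 0.35 to 0.57 when each library was left out in turn. For Cntnap5a reads ran from 187 to 244 (median 221) in ethanol pools and from 167 to 231 (median 183) in water pools, and for Cntnap5c from 432 to 478 (median 452) and from 389 to 489 (median 421), so both overlap. Their log2 fold changes were 0.25 ± 0.10 and 0.12 ± 0.05 (SE), each with an edgeR adjusted p of 0.998. When each of the 11 libraries was left out in turn, Cntn6 stayed at the unadjusted threshold in all cases, Cntnap5a lost it in 7 and Cntnap5c in 9. Both lost it without female water replicate 4, at 0.20 and 0.08, and Cntnap5a also without female water replicate 2, at 0.24. The other estimates were 0.24 ± 0.12 in Cntn4, 0.06 ± 0.06 in Cntn5, 0.08 ± 0.07 in Cntnap2, 0.26 ± 0.175 in Cntnap5b and 0.19 ± 0.21 in Nlgn1. All 5 moved with single libraries. Without female water replicate 4 Cntnap5b was at 0.115 and Cntn5 at 0.0038, and Cntnap5b reached 0.37 without water replicate 5. Nlgn1 fell to 0.05 without female ethanol replicate 5, and Cntn4 to 0.16 without water replicate 2. Cntn4 was at 0.31 without water replicate 5, one of 3 cases in which it reached the unadjusted threshold. Cntnap2 ran from 0.05 to 0.11. The ratio to scaled input gave 0.05 ± 0.10 in Cntn6, 0.10 ± 0.10 in Cntnap5a and 0.06 ± 0.10 in Cntnap5c. By that measure 3 genes were below 0: Nrxn3 (-0.0157), Cntnap5b (-0.0128) and Nlgn1 (-0.016).

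The female libraries also differed in how much was listed. Female water replicate 2, the library of fewest enriched islands, and replicate 4 had 130 and 141 Mb of listed H3K9me3 islands, against 172.6 to 198.5 Mb in the 6 female ethanol libraries and 176.5 to 199.1 Mb in the other 3 of water. Mean coverage of Cntn6 was 5.10% ± 0.991 with ethanol (SD, n = 6) and 3.60% ± 1.29 with water (n = 5; two-sided exact permutation test, p = 0.0693). Coverage of Cntnap5c was 14.5% ± 0.595 and 12.8% ± 2.03 (n = 6 and 5; exact permutation test, p = 0.0736). Without female water replicate 4, the difference for Cntnap5c fell from 1.79 to 1.08 percentage points and its log2 fold change of reads from 0.12 to 0.08, and the part of the listed length in these values was not tested. All 9 differences in female coverage were above 0, as were 68.8% of those of all genes, and 0 of the 9 reached an unadjusted p of 0.05, where 122 of 4216 genes did (2.89%). In males, 0 of the 9 and 80 of 4184 genes did (1.91%). Nlgn1 was nearest, with a difference of 0.402 percentage points (exact permutation test, p = 0.208), which was 0.247 without male ethanol replicate 4, and the difference of Cntnap5b turned from 0.611 to -0.163 percentage points without male ethanol replicate 4. No gene passed the adjusted exact permutation test in either sex. Mean H3K9me3 coverage of the 7 neuronal marker genes in females was 0.225% ± 0.187 with ethanol and 0.0135% ± 0.0192 with water (SD over pools). That of non-brain genes was also higher with ethanol (0.257 and 0.0883%). Endothelial (0.754 and 1.25%) and astrocyte genes (0 and 0.0731%) were lower with ethanol. Over all libraries the median gene of the neuronal, astrocyte and non-brain lists was at 0%, so these means rest on few genes. The highest genes of these lists were Gad2 (0.723%), Slc1a3 (0.13%) and Ins2 (1.69%). The part of these lists in the members' values was not tested.

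**Figure D5:**
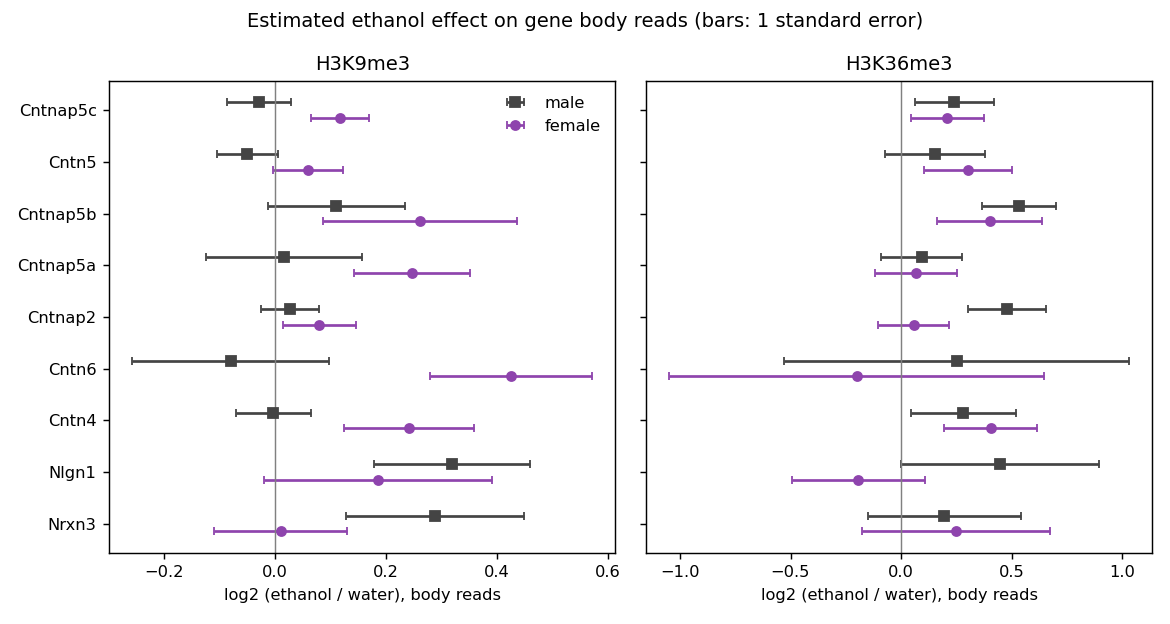
Estimated log2 ratio of ethanol to water in gene body reads (edgeR), with bars of 1 standard error, for males (squares) and females (circles). Female H3K9me3 estimates run from 0.01 to 0.43 and male H3K36me3 estimates from 0.09 to 0.53, none passed the adjusted test, and against scaled input Nrxn3 and Nlgn1 are below 0 in both and Cntnap5b in the former.

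In males, H3K36me3 body reads of Cntnap2 and Cntnap5b were higher with ethanol at the unadjusted threshold, and neither passed the adjusted test. Of 5782 genes, 140 were at that threshold (2.42%) and 0 after adjustment (22 by DESeq2 and 11 by limma on the ratio to scaled input, none a member). The count of 140 ran from 97 to 757 when each library was left out, with the highest value without male ethanol replicate 5. For Cntnap5b, reads per M were 161, 249 and 268 (lowest, median, highest) in ethanol pools. They were 146, 146, 163, 178 and 183 in water pools. Ethanol replicate 4, the library with fewest reads, lay among the water pools, and the other 5 ethanol pools lay above all of them. The log2 fold change was 0.53 ± 0.17 (SE; edgeR adjusted p = 0.969). For Cntnap2, reads per M were 496, 642 and 843 in ethanol pools and 406, 414, 456, 548 and 604 in water pools, so the groups overlap. For this gene the model gave 0.48 ± 0.18 on the log2 scale (SE), again with an edgeR adjusted p of 0.969. When each of the 11 libraries was left out in turn, body reads of both genes stayed at the unadjusted threshold. Cntnap5b ran from 0.48 to 0.72 and Cntnap2 from 0.44 to 0.64. The other estimates were 0.20 ± 0.35 in Nrxn3, 0.45 ± 0.45 in Nlgn1, 0.28 ± 0.24 in Cntn4, 0.15 ± 0.225 in Cntn5, 0.25 ± 0.78 in Cntn6, 0.09 ± 0.18 in Cntnap5a and 0.24 ± 0.18 in Cntnap5c. All 7 moved by over 1.5 times when single libraries were left out: Nrxn3 ran from 0.10 to 0.44, Nlgn1 from 0.27 to 0.77, Cntn4 from 0.16 to 0.41, Cntn5 from 0.08 to 0.40, Cntn6 from 0.05 to 0.62, Cntnap5a from 0.06 to 0.29 and Cntnap5c from 0.215 to 0.45. The highest value came without male ethanol replicate 4, the library of fewest reads, for Cntn5, Cntn6, Cntnap5a and Cntnap5c, and there Cntn5 and Cntnap5c reached the unadjusted threshold, as Cntnap5c did without male ethanol replicate 5. Against scaled input Nrxn3 (-0.07) and Nlgn1 (-0.0014) were not above 0.

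Coverage of these genes differed in the same direction. H3K36me3 islands covered 4.34% ± 1.21 of Cntnap5b with ethanol (SD, n = 6) and 2.92% ± 0.403 with water (n = 5; two-sided exact permutation test, p = 0.039, adjusted p = 0.515). They covered 3.66% ± 0.755 and 2.66% ± 0.504 of Cntnap2 (n = 6 and 5; exact permutation test, p = 0.0433, adjusted p = 0.522). Each of these 2 differences lost the unadjusted threshold in 7 of the 11 cases in which 1 library was left out. These were 2 of the 9 genes at the unadjusted threshold, beside 683 of 7788 genes (8.77%), of which 108 were more covered with ethanol. Against input the differences were smaller than the spread: ChIP over scaled input in Cntnap5b was 1.29 ± 0.187 with ethanol and 1.21 ± 0.198 with water, and in Cntnap2 1.29 ± 0.241 and 1.18 ± 0.136 (SD), and log2 differences were 0.10 ± 0.17 and 0.12 ± 0.17 (SE). Coverage of Cntnap5c and Nlgn1 reached the unadjusted threshold when single libraries were left out. Cntnap5c ran from 0.916 to 2.53 percentage points (exact permutation test, lowest p = 0.0317) and Nlgn1 from 0.226 to 0.503 (same test, lowest p = 0.0476).

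The background of this comparison was not level. Over all genes tested, the median log2 fold change of male H3K36me3 reads was -0.61, while the median of the 9 members was 0.25. These medians depended on the scaling: they were -0.39 and 0.56 without TMM factors and -0.20 and 0.08 against scaled input. Less of the listed H3K36me3 length lay in genes in 5 of the 6 male ethanol libraries (20.9 to 26.3%) than in the 5 male water libraries (28.2 to 35.3%), and male ethanol replicate 5 was at 35.5%. Mean H3K36me3 coverage of the 7 neuronal genes was also lower with ethanol, at 0.336% ± 0.331 against 1.5% ± 0.776 with water in males and 0.704% ± 0.865 against 2.88% ± 2.14 in females (SD over pools). It was not the only list: in males the means of oligodendrocyte (0.277 and 0.461%), astrocyte (0.417 and 0.874%), endothelial (2.48 and 3.69%) and non-brain genes (1.53 and 2.07%) were lower with ethanol too, that of microglia was not (0.497 and 0.475%), and in females astrocyte (0.652 and 0.458%) and non-brain genes (2.08 and 1.94%) were higher. Without male ethanol replicate 5, 175 genes passed the adjusted edgeR test, none of them a member, and the adjusted p was 0.0678 for Cntnap5b and 0.0683 for Cntnap2. The part of these shifts in the members' values was not tested.

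In females, H3K36me3 gave no member at the unadjusted threshold in either measure. For body reads, 34 of 6553 genes were (0.519%), and for coverage 304 of 8601 (3.53%), with 0 genes after adjustment in both (1 by DESeq2 for body reads). Estimates ran from -0.20 ± 0.85 (Cntn6) to 0.40 ± 0.21 (Cntn4), and 7 of the 9 were above 0, against 46.2% of all genes. Of the 7, those of Cntnap2 and Cntnap5a changed sign when single libraries were left out, as did that of Cntn6, which was below 0. Between these lay Nlgn1 (-0.19 ± 0.30), Cntnap5a (0.07 ± 0.185), Cntnap5c (0.21 ± 0.16), Nrxn3 (0.25 ± 0.425), Cntn5 (0.30 ± 0.20) and Cntnap5b (0.40 ± 0.24). Here too single libraries moved the estimates: Nrxn3 ran from 0.01 (without female ethanol replicate 1) to 0.71 (without female water replicate 1), Nlgn1 from -0.39 (without water replicate 3) to -0.00044 (without water replicate 1) and Cntn5 from 0.16 to 0.38. Cntn4 ran from 0.26 to 0.54, Cntnap5b from 0.26 to 0.55 and Cntnap5c from 0.14 to 0.33. Cntn4, without water replicate 1 or 3, and Cntnap5b, without water replicate 3, reached the unadjusted threshold. Against scaled input the direction turned: 8 of the 9, all but Cntn6 (0.08), were below 0, from -0.04 in Nlgn1 to -0.18 in Nrxn3, with -0.13 ± 0.12 in Cntn4. Cntn4 was the member nearest the threshold for coverage, with a difference of 0.302 percentage points (exact permutation test, p = 0.13). That difference was -0.257 over enriched islands alone and reached the threshold without female ethanol replicate 6. Coverage of Nlgn1 and Cntnap5a, lower with ethanol, also reached the threshold when single libraries were left out. Nlgn1 ran from -0.506 to -0.114 percentage points (exact permutation test, lowest p = 0.019). Cntnap5a ran from -0.674 to -0.0975 percentage points (exact permutation test, lowest p = 0.0476). Cntnap2, at the unadjusted threshold in males, had 448 to 591 reads per M (median 509) with ethanol and 457 to 677 (median 501) with water in females. The means were 508 and 527, coverage was 2.92 and 3.04%, and the log2 fold change was 0.06 ± 0.16, so no direction can be read.

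The difference between the sexes was tested itself. For H3K36me3, the female minus male difference in log2 fold change of Cntnap2 was -0.51 ± 0.25 (SE; edgeR adjusted p = 0.619), and it was the only member among the 678 of 8454 genes at the unadjusted threshold (8.02%). It lost that threshold in most of the cases in which 1 library was left out. For H3K9me3, no member was among the 281 of 4286 genes at that threshold (6.56%), with Cntn6 nearest at 0.49 ± 0.24 (SE; edgeR adjusted p = 0.775), and Cntn6, Cntn4, Cntnap5c and Nrxn3 reached it when single libraries were left out. In all, 2 genes passed the adjusted H3K9me3 interaction test, the X-linked Gm5168 and Cpxcr1 (edgeR adjusted p = 0.00656 for both), and were named after their values were seen. Their female minus male differences in log2 fold change were -9 ± 1.27 and -8.25 ± 1.22 (SE). Whether such sizes come from pools without a listed island in these genes was not tested. By DESeq2 55 genes passed the interaction test, none a member. For H3K36me3 0 genes passed it, and by DESeq2 181 did, none a member.

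Single regions inside the genes gave little. Of the H3K9me3 regions of the 9 genes, 81 could be tested in males and 64 in females (an island in each of the 11 libraries was required), and 0 were at an unadjusted p of 0.05 in either sex. Genome-wide, 814 of 27957 male regions (2.91%) and 1086 of 27241 female regions (3.99%) were, and 0 after adjustment (8 male and 2 female regions by DESeq2). Estimates were above 0 in 37 of the 81 male and 37 of the 64 female regions, and in 49.8% of all male and 51.4% of all female regions. In males the member region of smallest p was in intron 12 of Cntnap5c, chr17:58172801-58177000. Ethanol pools had 17.6 ± 2.79 reads per M there and water pools 21.6 ± 2.94 (SD), and the log2 fold change was -0.27 ± 0.15 (SE; edgeR adjusted p = 0.999). In females it was in intron 3 of Cntnap2, chr6:45735801-45737800, with 8.66 ± 0.714 and 7.88 ± 0.872 reads per M (SD), and the estimate was 0.22 ± 0.12 (SE; edgeR adjusted p = 0.999).

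For H3K36me3, 18 member regions were tested in males and 0 were at the unadjusted threshold, beside 430 of 7532 regions (5.71%), of which 0 passed the adjusted test (3 by DESeq2). The smallest p was in intron 1 of Cntnap5a, chr1:115800001-115803600, where the log2 estimate was 0.24 ± 0.16 (SE; edgeR adjusted p = 0.898). For that Cntnap5a region it was 0.12 without male water replicate 4 and 0.34 without male water replicate 1. In females 24 were tested and 1 was at the threshold, beside 325 of 9018 regions (3.60%), of which 0 passed the adjusted test. It lies in intron 10 of Cntnap2 at chr6:46300001-46303600, inside an H3K9me3 region found in all 22 libraries. Female ethanol pools had 25.5, 31.5 and 42.0 reads per M (lowest, median, highest) and water pools 18.6 to 34.1 (median 22.9), and the groups overlap. The log2 fold change was 0.40 ± 0.12 (SE; edgeR adjusted p = 0.995). Its reads were at the level of input, with a ratio to scaled input of 0.995 ± 0.0949 with ethanol and 0.923 ± 0.140 with water (SD), and over all 22 libraries of 0.956, the lowest of the 90 H3K36me3 regions in these genes.

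The 46 other adhesion genes were tested alongside. For H3K9me3 body reads, 18 of them could be tested in males and 17 in females, and 0 were at the unadjusted threshold in either sex. The smallest p was that of Cntnap3 in males (log2 fold change 0.27, edgeR adjusted p = 1) and of Il1rapl2 in females (0.185, edgeR adjusted p = 0.998). For H3K36me3 body reads in males, 4 of 28 were at the threshold, all higher with ethanol, led by Adgrl3, a latrophilin (0.56, edgeR adjusted p = 0.969), beside 2.42% of all genes, and the median estimate of the 28 was -0.27, beside -0.61 over all genes. In females 0 of 30 were, with Il1rapl1 at the smallest p (0.23, edgeR adjusted p = 1). H3K36me3 coverage in males gave 3 genes more and 2 less covered of 30, beside 8.77% of all genes. In females it gave 0 more and 1 less of 31, beside 3.53% of all genes: Cntnap4, by 0.981 percentage points (exact permutation test, p = 0.00866, adjusted p = 1). For H3K9me3 coverage 0 of 19 in males and 1 of 19 in females, Cadm2, more covered, were at the unadjusted threshold, beside 1.91% and 2.89% of all genes. None of the 46 passed an adjusted test for either mark, sex or measure.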

How the data were processed

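ChIP-seq libraries of 22 PFC pools were deposited as one SICER island list per mark. For H3K9me3 the authors trimmed reads with CutAdapt, aligned them to GRCm38 with Bowtie2 2.4.1, kept reads with 1 mapping place outside blacklisted regions, and called islands against input (window 200 bp, gap 400 bp). The H3K36me3 lists used a gap of 600 bp; the submitters' processing notes name the same tools and build, and which reads were kept for that mark is not stated in them. The reference is of another strain than DBA/2J. The deposited counts are raw ChIP and input reads per island. The authors' fold ratio divides ChIP by input reads and one constant per library, and was used here only for that constant. The authors' q-values per island set which islands were called enriched (q at most 0.01). For H3K9me3 the DNA of 8 precipitations per pool was combined before sequencing.

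Reads were apportioned to GENCODE M21 gene bodies by overlapped length, rounded, filtered with filterByExpr, TMM-scaled and tested with edgeR 4.0.16 in R 4.3.3 (quasi-likelihood, Benjamini-Hochberg over all genes or regions, threshold 0.05, unadjusted counts added because the study used an unadjusted threshold). For percent covered, the test was an exact permutation test (two-sided, 462 arrangements of 6 and 5 libraries, smallest p 0.00433), for genes above 0 in at least 3 of 11 libraries. Alternatives used DESeq2 1.42.0 and limma 3.58.1 (log2 of ChIP over scaled input, pseudocount 1). The tests were tried on simulated data. Other tools were samtools 1.23.1, scipy 1.17.1, numpy 2.4.6, matplotlib 3.10.9, pandas 2.3.3 and Python 3.11.15.

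The members, gene lists and tests were chosen with earlier results of these data known. The rule names all 9 members in each comparison. Each has its value in those of body reads, and for coverage and the interaction with sex those at or nearest the threshold are given. Of their regions, those at an unadjusted p of 0.05, at most 3 per mark and sex, or else the 1 of smallest p, are named, and of the other adhesion genes the 1 of smallest p for body reads. Separate pools are the replicates, and the number of reads limits the precision of each value. Some sequences of covered regions are not reported here.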

Additional observations from a re-analysis of the deposited data

Results flagged for a closer look

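Sets of 5 or 6 pools in which 1 pool lay far from the rest were sought in 144 sets of values (9 genes, 2 marks, 4 groups, percent covered and ratio to scaled input). Chance gives about 1 in 20, and 10 (6.94%) were found. For percent covered by H3K9me3, Nrxn3 was at 0.955% in male ethanol replicate 6 (next 0.645%) and at 0.893% in male water replicate 1 (next 0.521%). For percent covered by H3K36me3, Cntnap2 was at 2.81% in female water replicate 2 (next 3.06%), and Cntnap5a was at 1.53% in female water replicate 4 (next 3.15%) and at 1.40% in male ethanol replicate 4 (next 2.64%), which were the H3K36me3 libraries with the fewest reads in islands.

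For the ratio of H3K36me3 reads to scaled input, Cntn6 was at 3.43 in female ethanol replicate 3 (next 1.49), where it rests on 1 island of 35 ChIP reads. In male water replicate 1, Cntnap5b was at 1.55 (next 1.18) and Cntnap5c at 1.52 (next 1.16). For the H3K9me3 ratio, Cntnap2 was at 1.12 in female water replicate 2 (next 1.40) and Cntnap5c at 1.57 in male ethanol replicate 4 (next 1.42).

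The effect of ethanol on H3K36me3 body reads of Cntnap2 differed between the sexes at an unadjusted p of 0.0477 (edgeR adjusted p = 0.619), and at 0.0181 to 0.0963 when each library was left out in turn.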

How the results depend on the processing

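No member passed an adjusted test under any alternative in which members' own values were taken. Among regions these values were taken for the named ones only. Other fits, such as that without a filter on low counts, were counted over all genes or regions, not member by member. The number of genes or regions passing after adjustment moved from 0 under several alternatives and when single libraries were left out. DESeq2 gave 3 genes for male and 4 for female H3K9me3 body reads, and 22 for male and 1 for female H3K36me3 body reads. It also gave 8 male and 2 female H3K9me3 regions and 3 male H3K36me3 regions. For the interaction with sex it gave 55 genes for H3K9me3, against 2, and 181 for H3K36me3, against 0. Islands with q at most 0.01 gave 1 gene for male H3K36me3 body reads and 1 for the interaction of each mark. The ratio to scaled input gave 11 genes in males and 1 in females for H3K36me3, and no filter on low counts gave 1 in females. Leaving out 1 library gave 0 to 1 genes for male and 0 to 2 for female H3K9me3 body reads, 0 to 1 male H3K9me3 regions, 0 to 175 genes for male H3K36me3 body reads (175 without male ethanol replicate 5) and 0 to 14 for the H3K36me3 interaction (14 without the same replicate). The causes were not tested. The unadjusted counts set beside the members moved more. Without 1 library they ran from 57 to 115 for male and 68 to 179 for female H3K9me3 body reads, from 97 to 757 (without male ethanol replicate 5) and 30 to 101 for H3K36me3, from 72 to 147 and 78 to 223 for H3K9me3 coverage, from 493 to 1439 and 152 to 475 for H3K36me3 coverage, and from 556 to 1497 for the H3K36me3 interaction.

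Among members, the 6 body reads results at the unadjusted threshold kept their sign under every alternative in which members' own values were taken. Their log2 fold changes against input were 0.05 (Nlgn1), 0.05 (Cntn6), 0.10 (Cntnap5a), 0.06 (Cntnap5c), 0.12 (Cntnap2) and 0.10 (Cntnap5b). Over all 9 genes, signs changed in 33 of 179 values of body reads and 13 of 72 of coverage under those alternatives, and in 18 and 35 of 396 each when 1 library was left out, in no case for a result at the unadjusted threshold. Male H3K36me3 members had a median of 0.56 without TMM factors and 0.08 against input, and all genes -0.39 and -0.20 (chosen after seeing the data). Same-numbered ethanol and water pools did not deviate together (correlations from -0.23 to 0.07), so numbers do not pair them. With the replicate number as a block, 0 genes and regions passed the edgeR test, and the exact test of coverage could not (smallest p 0.0625). The block gave log2 fold changes of 0.64 for Cntnap2 and 0.57 for Cntnap5b in male H3K36me3, both with an edgeR adjusted p of 0.719. Enriched islands gave no value for H3K36me3 of Cntn6 in males or for the 4 named regions. Reads inside islands limit depth: per library and gene, H3K36me3 reads fell to 0 (Cntn6) and H3K9me3 reads to 230 (Cntn6).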
